A study of Mus musculus with 7 samples.

Results

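Blockade of the ICOS ligand (ICOSL) from the day of transplantation was compared with a control antibody in the spleens of mice that had received an allogeneic graft. The comparison uses 4 of the 7 arrays of the series, chosen by their titles: 2 arrays of mice given anti-ICOSL antibody from day 0 and 2 arrays of mice given isotype antibody. All recipients were female C57BL/6 mice aged 9 to 12 weeks. They were irradiated with 10.0 Gy and received splenocytes freed of red cells by vein 4 to 6 h later, from C3H/HeN donors in the allogeneic groups and from the recipients' own strain in the syngeneic group. Anti-ICOSL monoclonal antibody was given as 500 µg on day 0, then 200 µg every other day. The isotype group received control rat IgG in the same amounts, and the day of its first injection was not stated, so antibody and timing of injections cannot be told apart. Spleen cells of all groups were collected on day 4. The 2 arrays of mice treated from day 3 and the single syngeneic array serve as reference points.

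ICOS is a costimulatory receptor that T cells display after activation, and ICOSL is its ligand on B cells, macrophages and dendritic cells. The signal passes through phosphoinositide 3-kinase and is best known for supporting follicular helper T cells and the release of cytokines such as IL-4, IL-10 and IL-21. In graft-versus-host disease donor T cells expand in the recipient's spleen and turn into cytotoxic effector cells that attack its tissues.

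According to the series design, each treatment group had 4 mice per experiment, and combined RNA of allogeneic mice was hybridised to 2 independent arrays. The p-values therefore measure only the spread between arrays, which may be technical. Within the isotype and the day 0 group the log2 values of the 2 arrays correlated across probe sets with r = 0.964 and r = 0.969. The arrays of a group lay at least 2-fold apart for 4.29% and 3.17% of 15372 tested probe sets. Gapdh gave a 3'/5' signal ratio, a measure of RNA integrity, of 0.784 and 0.767 under isotype and 0.794 and 0.821 under day 0 treatment. Its part in the results was not tested. Genes of the main spleen cell types were measured on every array, with Csf1r of macrophages at 1951 or more and Cd22 of B cells at 2481 or more. In RNA of whole spleen cells, fewer cells of a type and less RNA per cell cannot be told apart.

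In spleens treated from day 0, most macrophage genes were higher than in isotype spleens, and most genes of B cells, of the type I interferon response, of haemoglobin and of the exocrine pancreas were lower. Genes of cytotoxic T cells and of the ICOS pathway itself were at nearly the same level. Saa3, an acute-phase apolipoprotein, had the largest positive difference of the genes at least 2-fold apart, and Cpb1, a pancreatic carboxypeptidase, the largest negative one. No single probe set passed at an adjusted p of 0.05 (limma's moderated test with Benjamini-Hochberg adjustment, 0 of 15372, 0%), and the smallest adjusted p was 0.0853, reached by 4 probe sets. An unadjusted p under 0.05 was found for 1103 probe sets (7.18%). Differences are given on the log2(signal + 50) scale, on which a difference of 1 is 2-fold, with the standard error (SE) of the fit. An exact permutation test of 2 against 2 arrays cannot go below p = 0.333.

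Differences of at least 2-fold whose isotype and day 0 arrays did not overlap were found for 194 probe sets (1.26%), 115 higher (0.748%) and 79 lower (0.514%). With 1 probe set per gene, 107 of 8962 genes (1.19%) met both criteria, 67 of them higher (0.748%) and 40 lower (0.446%). Many of these genes were dim. A group mean below a signal of 50 was present for 41 of the 67 and for 26 of the 40. Testing required that some group mean reached a signal of 99.7. A dim gene could therefore enter through the only group in which it was high, and such genes were not counted. The median difference of all tested genes was 0.02, and 4750 genes were higher on the day 0 arrays against 4212 lower.

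**Figure D1:**
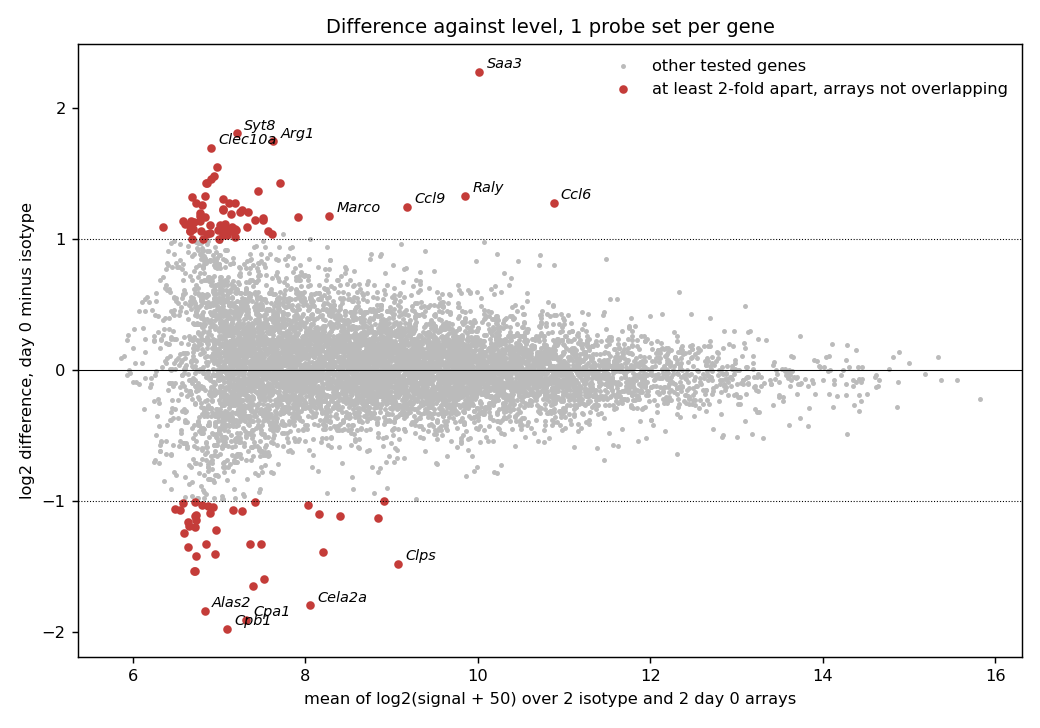
The log2 difference between day 0 and isotype arrays (vertical axis) is plotted against the mean log2(signal + 50) of the 4 arrays (horizontal axis), with 1 point for each of 8962 genes. Red points mark the 67 genes higher and 40 genes lower by at least 2-fold whose arrays did not overlap, most of them at low signal, while Saa3, Ccl6, Ccl9, Raly and Clps stand apart at higher signal.

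Among the genes with the largest positive differences were products of macrophages and monocytes. Saa3 had signals of 468 and 375 under isotype and 2286 and 2184 under day 0 treatment. The groups were clearly separated, and both day 0 arrays also exceeded the syngeneic array at 850.2. The difference was 2.28 ± 0.23 (SE; 4.87-fold, adjusted p = 0.117; means 421 ± 65.5 and 2235 ± 72.2, SD, n = 2). Saa3 passed under 3 of 14 alternative settings, with a lowest adjusted p of 3.9e-04.

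Arg1 encodes arginase, which consumes arginine in alternatively activated macrophages. Its mean was 57.6 ± 0.805 under isotype (SD, n = 2), the day 0 arrays held 329.8 and 295, and the syngeneic array held 5.32. Its groups did not overlap either, and the syngeneic array was the lowest. The difference was 1.75 ± 0.16 (SE; 3.37-fold, adjusted p = 0.0853). Clec10a, a galactose-binding lectin of macrophages and dendritic cells, stood at 16.3 and 16.6 under isotype and at 164 and 167 under day 0 treatment, with 78.5 on the syngeneic array. Its replicate arrays were nearly identical, and the isotype arrays were the lowest of all 7. The difference was 1.70 ± 0.15 (SE; 3.24-fold, adjusted p = 0.0853). Clec10a belonged to a list of dendritic cell genes, of which 8 tested members were higher and 9 lower (median −0.03).

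Marco, the scavenger receptor of marginal zone macrophages, was 154 and 157 under isotype against 406 and 428 under day 0 treatment. Both groups stayed far below the syngeneic array at 1114. The difference was 1.18 ± 0.15 (SE; adjusted p = 0.154). Pla2g7, a lipase that degrades platelet-activating factor, was 75.7 and 43.5 against 251 and 212, with 2013 on the syngeneic array (difference 1.37 ± 0.23 SE, adjusted p = 0.250). Ms4a7, a membrane protein of mature macrophages, was 26.0 and 17.9 against 173 and 95.9, with 478 on the syngeneic array (difference 1.33 ± 0.23 SE, adjusted p = 0.317). In each of these 3 genes the day 0 arrays lay between the isotype arrays and the syngeneic array.

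A pair of related CC chemokines, Ccl6 and Ccl9, which attract and are produced by myeloid cells, had higher signals as well. Ccl6 was 1351 and 989 under isotype and 2728 and 3043 under day 0 treatment (difference 1.28 ± 0.20 SE, adjusted p = 0.240). Ccl9 was 347 and 303 against 865 and 819 (difference 1.25 ± 0.16 SE, adjusted p = 0.159). For both chemokines the day 0 arrays were the highest of all 7, above the syngeneic array at 1522 for Ccl6 and 499 for Ccl9. Further probe sets of Ccl6 and Ccl9 gave 1.08 and 1.30. Ccl3, an inflammatory chemokine of macrophages and activated T cells, was 121 and 106 against 211 and 320.0 (0.93, adjusted p = 0.529). Raly, an RNA-binding protein, was 639 and 445 against 1317 and 1519, with 534 on the syngeneic array (difference 1.33 ± 0.22 SE, adjusted p = 0.242).

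Of the other genes among the 15 largest positive differences, Pga5, a pepsinogen, was 20.1 and 24.2 against 175 and 126 (1.46, adjusted p = 0.154), and Bicdl1, an adaptor for dynein transport, was 42.8 and 25.9 against 161 and 156 (1.31, adjusted p = 0.185). Vwa5a was 55.9 and 103 against 210.4 and 402 (1.43), but a further probe set of Vwa5a gave 0.01. The remaining ones were Syt8 (1.81), Sema4f (1.55), Tbc1d8 (1.48), Asah2 (1.43), Dkkl1 (1.43) and Gsx2 (1.32), with adjusted p from 0.529 for Asah2 to 0.670 for Dkkl1. Replicate arrays of the remaining genes differed within groups, as for Syt8 with 148 and 334 under day 0 treatment. On the day 3 arrays, which share the fit, Syt8 was 251 and 46.4 and Gsx2 157 and 31.9. For Asah2, Dkkl1 and Gsx2 only the day 0 mean reached the signal required for testing. The filter thus admitted them through the group in which they were high.

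**Figure D2:**
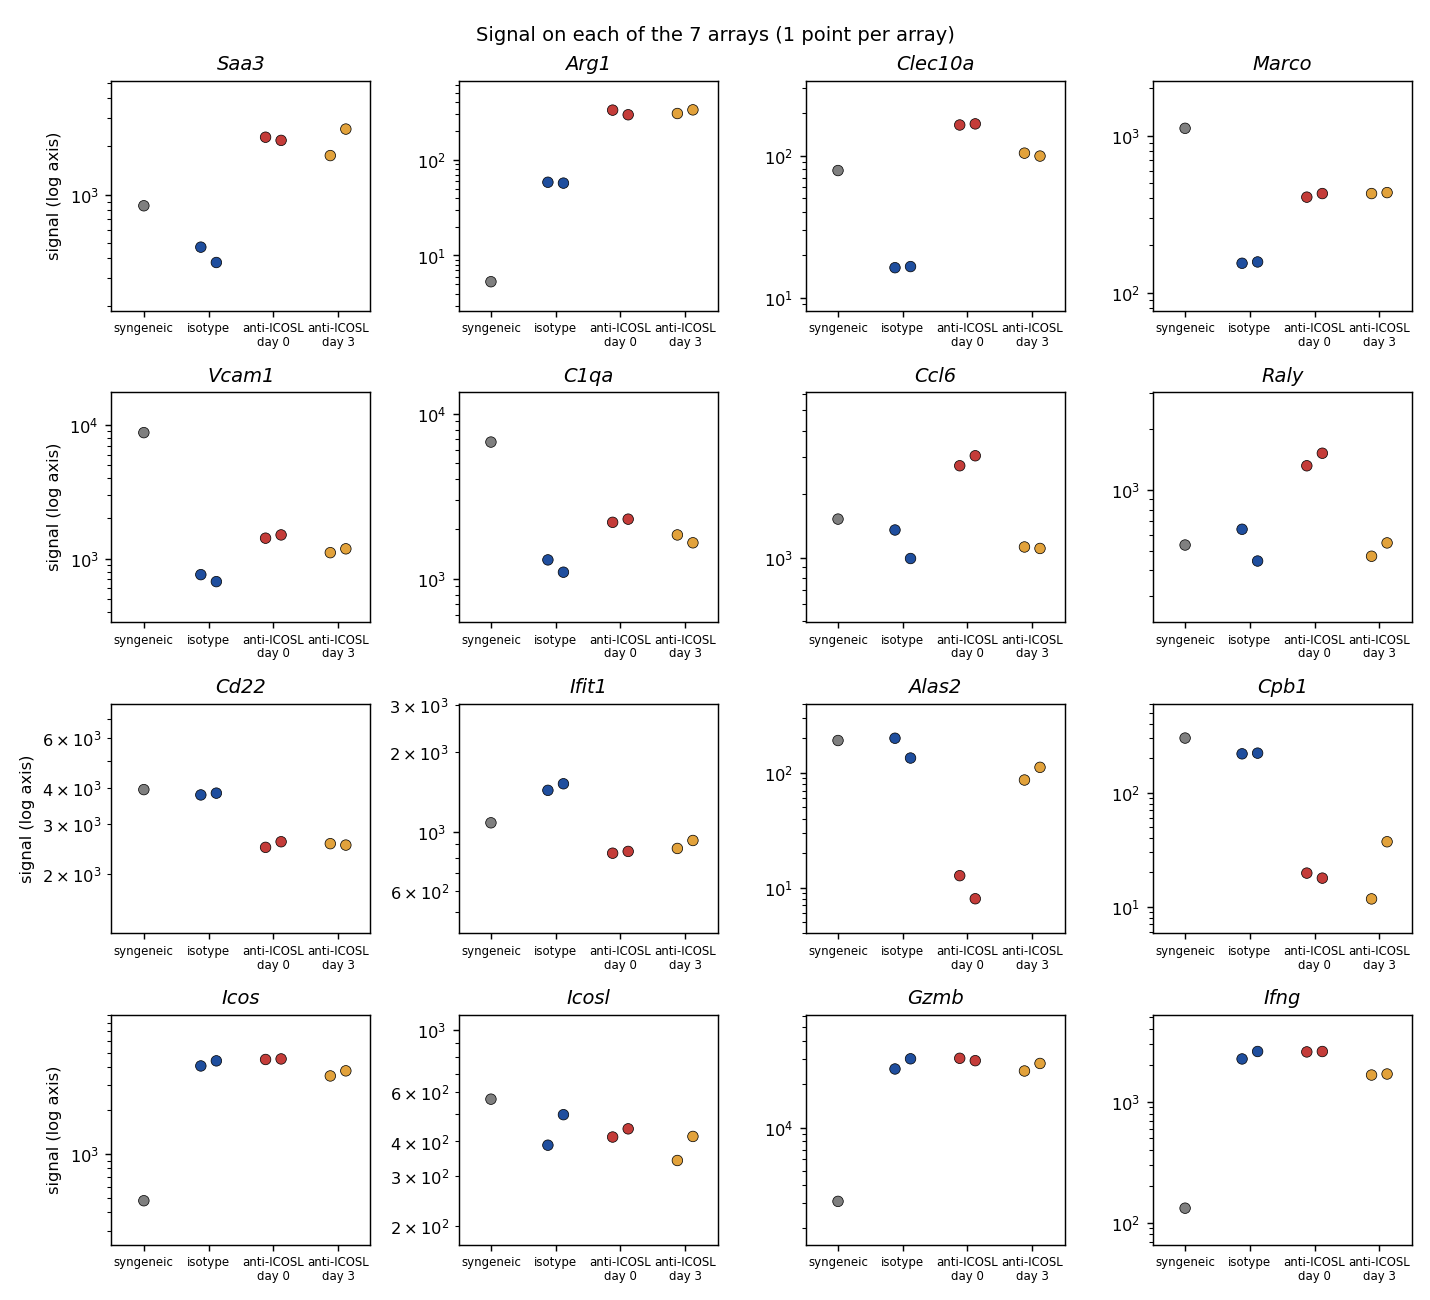
Signal (log axis) of 16 genes on each of the 7 arrays, with 1 point per array and the groups along the horizontal axis. Saa3, Arg1, Clec10a, Marco, Vcam1, C1qa, Ccl6 and Raly are higher on both day 0 arrays (red) than on both isotype arrays (blue), Cd22, Ifit1, Alas2 and Cpb1 are lower, and for Icosl, Gzmb and Ifng the groups overlap.

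Gene lists of cell types were examined next. They were drawn up with earlier results of these data known and hold genes described above, such as Saa3, Arg1, Pla2g7 and Marco. Core macrophage genes (29 of 32 members tested) were higher in 27 members and lower in 2, with a median difference of 0.44. No overlap between the groups was seen for 23 higher members and 1 lower member, where over all genes 19.4% were higher and 15.7% lower without overlap. The median difference between the 2 isotype arrays was 0.13 for this list and that between the 2 day 0 arrays was −0.06. The summed signal of the list was 42096 and 40328 under isotype, 45359 and 46639 under day 0 treatment and 123728 on the syngeneic array. The day 0 arrays therefore stood much nearer to isotype than to syngeneic spleen. Itgam (CD11b), an integrin of myeloid cells, was 181 and 158 against 381 and 359 (0.94, adjusted p = 0.317). Csf1r, the receptor for the growth factor on which macrophages depend, was 1951 and 2022 against 2726 and 2704 (0.44, adjusted p = 0.680). The lower members were Cd74 (−0.42), the invariant chain of MHC class II that B cells also express, and Hpgds (−0.02).

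Red pulp macrophages clear aged erythrocytes and recycle their iron. Of 15 tested members of this list 11 were higher and 4 lower (median 0.45), and no array overlap was seen for all 11 higher members and 1 lower one, beside 19.4% and 15.7% of all genes. Vcam1, an adhesion molecule of these cells and of stroma, was 759 and 673 under isotype and 1422 and 1504 under day 0 treatment (0.98 ± 0.16 SE, adjusted p = 0.242). Further probe sets of Vcam1 gave 0.54 and 1.24. Slc40a1, the iron exporter ferroportin, was 876 and 776 against 1652 and 1490 (0.89 ± 0.16 SE, adjusted p = 0.323), and a further probe set gave 0.96. Cd5l, a secreted scavenger protein of macrophages, was 1308 and 1452 against 2686 and 2223 (0.80, adjusted p = 0.498). Each of the 3 genes remained several-fold below the syngeneic array, which held 8748 for Vcam1, 10891 for Slc40a1 and 12305 for Cd5l. Mrc1 (0.65), Axl (0.64), Adgre1 (0.45, the F4/80 antigen) and Spic (0.55, which controls the fate of red pulp macrophages) were also higher without overlap. Hmox1, which degrades haem, was 621 and 635 against 812 and 676 (0.22), and the haemoglobin scavenger receptor Cd163 was near background with 66.4 and 66.5 against 62.9 and 50.6 (−0.13). The marginal zone list held 6 tested members, all higher (median 0.51). Siglec1, the sialic acid receptor of metallophilic macrophages, was 91.3 and 35.2 against 139 and 236 (1.09, adjusted p = 0.736), so its replicate arrays differed widely, and another Siglec1 probe set gave 0.39 with overlap. Nr1h3, which encodes the liver X receptor needed for marginal zone macrophages, was 135 and 148 against 217 and 275 (0.62, adjusted p = 0.590).

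All 3 chains of the complement component C1q, which splenic macrophages secrete, were higher. C1qa was 1299 and 1094 under isotype and 2194 and 2293 under day 0 treatment (0.88 ± 0.17 SE, adjusted p = 0.350). C1qb was 1079 and 954 against 1840 and 1833 (0.83, adjusted p = 0.350), and C1qc was 1022 and 983 against 1601 and 1611 (0.65, adjusted p = 0.533). The 3 chains differed by similar amounts, and their day 0 replicates lay close together. Receptors for the constant part of IgG followed, with Fcgr1 at 96.3 and 151 against 218 and 313 (0.86), Fcgr3 at 206 and 344 against 617 and 467 (0.89) and Fcgr4 at 651 and 824 against 1096 and 1174 (0.60). Fcgr2b, the inhibitory member of these receptors, overlapped with 1086 and 919 against 1019 and 1525 (0.31), and other Fcgr2b probe sets gave −0.05, −0.01 and 0.23. Cd14, the coreceptor for lipopolysaccharide, was 163 and 204 against 309 and 434 (0.84), and Tlr4, its signalling partner, was 90.0 and 116 against 168 and 162 (0.50). C3ar1, the receptor of a complement fragment, differed by 0.89, and a further probe set gave 0.44. Tlr2, a sensor of bacterial lipoproteins, was lower, at 160.0 and 196 against 132 and 128 (−0.34, adjusted p = 0.778). Of 21 tested members of the complement and pattern recognition list 16 were higher and 5 lower (median 0.24). Its median difference between the 2 isotype arrays was −0.23, of nearly the same size as that between the groups.

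Inflammatory monocyte genes were higher in 12 of 18 tested members (median 0.30), 10 of them without overlap, beside 19.4% of all genes. Besides Saa3, Arg1 and Itgam these included Fn1, fibronectin, with 961 and 1041 against 1553 and 1759 (0.70), Thbs1, thrombospondin, with 98.0 and 149 against 231 and 226 (0.70, another probe set 0.43), and F10, coagulation factor X (0.52). The other 6 monocyte members were lower, all with overlap of the arrays. The largest negative difference among them was that of the chemokine Ccl2 (−0.74, adjusted p = 0.840), whose replicate arrays lay far apart. Neutrophil genes were higher in 14 of 18 (median 0.22), with Ltf, lactoferrin, at 661 and 505 against 766 and 1035 (0.58) and Ngp, a granule protein, at 2541 and 2297 against 3577 and 3490 (0.54). S100a8 and S100a9, the chains of calprotectin, were 0.34 and 0.31 higher. Mmp8, a collagenase of neutrophils, was lower, at 88.1 and 127 against 70.2 and 14.7 (−0.83). Megakaryocyte and platelet genes were higher in 12 of 15 (median 0.43), but the 2 isotype arrays themselves differed by a median of −0.31. Pf4, platelet factor 4, was 238 and 262 against 410.1 and 427 (0.64, adjusted p = 0.578), and its replicates were close. Selp, P-selectin, was 129 and 74.9 against 336 and 164 (0.94, another probe set 0.24), and Treml1, a platelet receptor, was 150.5 and 38.6 against 180.3 and 235 (0.94).

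**Figure D3:**
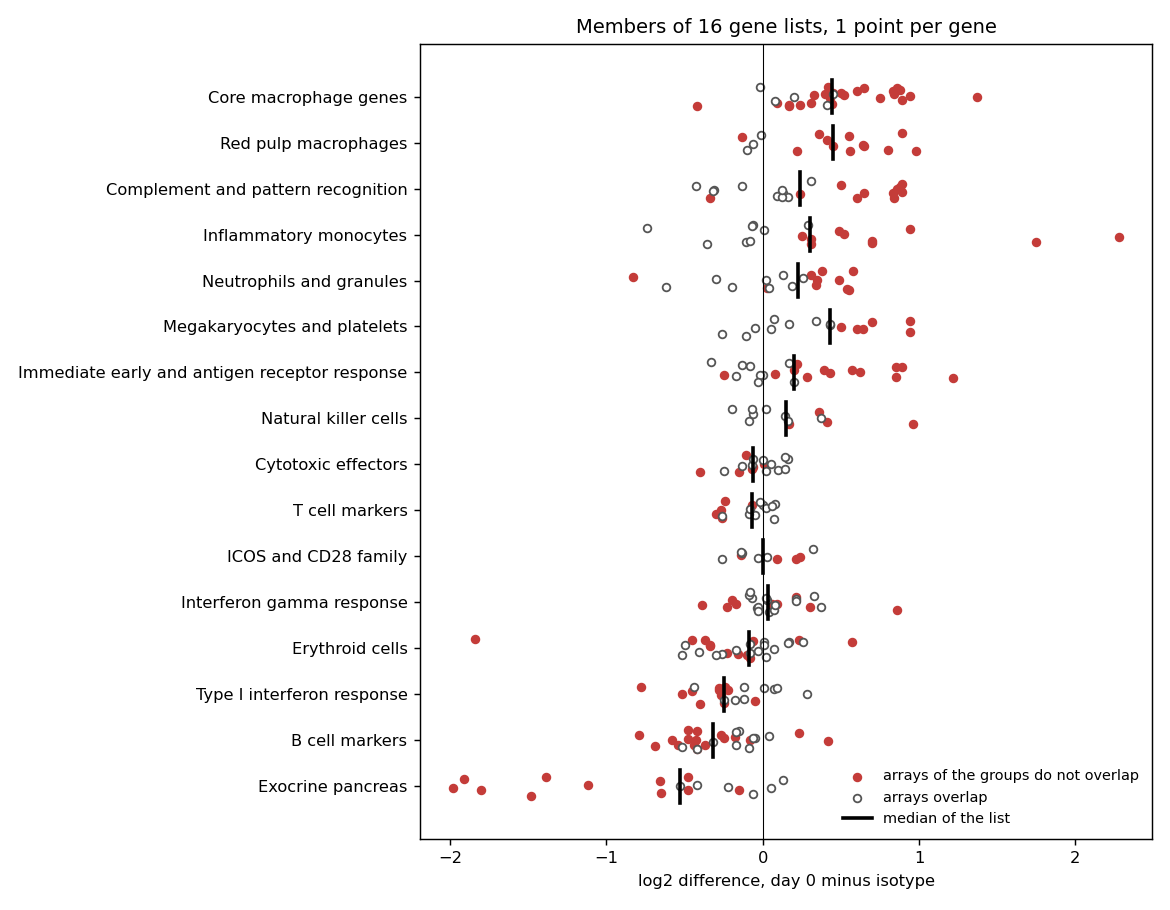
The log2 difference between day 0 and isotype arrays (horizontal axis) is shown for each tested member of 16 gene lists (vertical axis), with filled points where the arrays of the groups do not overlap, open points where they do, and a black bar at the median. Most filled points of the macrophage lists lie to the right of 0 and most of those of the B cell, type I interferon and exocrine pancreas lists to the left, while cytotoxic effectors and the ICOS and CD28 family lie close to 0.

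B cells present ICOSL to T cells in the follicle. B cell markers (27 of 36 members tested) were lower in 24 and higher in 3, with a median of −0.32, and the arrays did not overlap for 15 lower and 2 higher members, beside 15.7% lower and 19.4% higher over all genes. The 2 isotype arrays differed by a median of 0.00 and the 2 day 0 arrays by −0.04. The summed signal of the list was 111071 and 110932 under isotype and 93893 and 97748 under day 0 treatment. Cd22, an inhibitory coreceptor of the B cell receptor, was 3788 and 3843 against 2481 and 2596 (−0.58 ± 0.15 SE, adjusted p = 0.578), and another Cd22 probe set also gave −0.58. Cd79a, a signalling chain of the B cell receptor, was 4009 and 3129 against 2251 and 2106 (−0.69, adjusted p = 0.578), and its partner Cd79b was 1894 and 1666 against 1135 and 1480 (−0.44). Both chains had lower signals on each day 0 array than on either isotype array. Spib, a B cell transcription factor, was 1151 and 923 against 686 and 696 (−0.54), and Cd37, a tetraspanin, was 3417 and 3409 against 2172 and 2726 (−0.48). Ms4a1 (CD20) overlapped between the groups, with 5090 and 4454 against 4599 and 3142 (−0.32). Genes of MHC class II presentation were mixed (median −0.07, 5 higher and 6 lower of 11). H2-Eb1 was 4804 and 4475 against 3647 and 3438 (−0.38) and H2-Oa 838 and 686 against 599 and 477 (−0.47), whereas H2-Aa (−0.08) and H2-Ab1 (0.39) overlapped. Other H2-Ab1 probe sets gave −0.19 with overlap and 0.20 without.

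Genes of the follicular helper and germinal centre list went in different directions, with 4 higher and 4 lower of 8 tested members (median −0.04). Cxcr5, the chemokine receptor that guides B cells and follicular helper T cells into follicles, was 1240 and 1853 under isotype and 918 and 803 under day 0 treatment (−0.79 ± 0.23 SE, adjusted p = 0.590). Bcl6, the transcription factor of follicular helper and germinal centre cells, was 243 and 366 against 212 and 116 (−0.74, adjusted p = 0.680), but another Bcl6 probe set gave −0.09. Izumo1r, the folate receptor 4 of regulatory and follicular T cells and a member of the regulatory T cell list, was 344 and 441 against 195 and 246 (−0.71, adjusted p = 0.595). These 3 genes were lower without overlap of the arrays. Il4, in contrast, was at 27.3 and 29.7 under isotype and 106 and 91.2 under day 0 treatment (0.92 ± 0.17 SE, adjusted p = 0.327). Its signal was dim, and the day 0 mean of 98.4 lay below the 99.7 that some group mean had to reach for testing. Among the groups only the syngeneic one, with 107 on its single array, reached that signal for Il4, although 1 day 0 array held 106. Il10, the anti-inflammatory cytokine and also a member of the regulatory T cell list, was 162 and 267 against 437 and 309 (0.69, adjusted p = 0.680). Il21, the cytokine by which follicular helper cells drive B cells, overlapped between the groups with 337 and 503 against 426 and 472 (0.11, adjusted p = 0.952). Cxcl13, the chemokine bound by CXCR5, was 202 and 118 against 177 and 437 (0.69, adjusted p = 0.802), and a further probe set gave −0.11.

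The receptor and ligand under study had nearly the same level in both groups. Icos was 4044 and 4383 under isotype and 4479 and 4518 under day 0 treatment, compared with 480.3 on the syngeneic array. The difference was 0.09 ± 0.16 (SE, adjusted p = 0.932), and a further probe set gave 0.06. Icosl was 388 and 499 against 415 and 444 (−0.03 ± 0.19 SE, adjusted p = 0.980), with 567 on the syngeneic array. The antibody binds the protein, and the array measures the transcript. Of 10 tested members of the ICOS and CD28 family 5 were higher and 5 lower, with differences from −0.26 to 0.32. Among receptors, Cd28, the main costimulatory receptor, was 2216 and 3125 against 2589 and 2217 (−0.13). Ctla4, its inhibitory counterpart, was 1879 and 1448 against 1754 and 1619 (0.03), and Pdcd1 (PD-1) was 929 and 1272 against 720.1 and 1341 (−0.14). All 3 overlapped between the groups. Among ligands, the CD28 ligands Cd80 and Cd86 gave −0.14 and 0.32 with further probe sets of the opposite sign (0.63 and −0.12). The PD-1 ligands Cd274 and Pdcd1lg2 were 0.21 and 0.24 higher without overlap, and Tnfrsf14, the ligand of BTLA, gave −0.26 with overlap.

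Cytotoxic effector genes were at a similar level in both groups. Of 17 tested members 7 were higher and 10 lower, with a median of −0.06 and a range from −0.40 to 0.16. The arrays did not overlap for 5 lower members and 1 higher member, beside 15.7% and 19.4% of all genes. Gzmb, the granzyme that triggers death of target cells, was 25581 and 30122 under isotype and 30362 and 29223 under day 0 treatment, against 3059 on the syngeneic array (0.10 ± 0.17 SE, adjusted p = 0.932). Prf1, the pore-forming perforin, was 3089 and 2977 against 2934 and 2852 (−0.07 ± 0.17 SE, adjusted p = 0.954). Ifng, the main cytokine of type 1 effector T cells, was 2262 and 2607 against 2586 and 2606 (0.09 ± 0.16 SE, adjusted p = 0.932). Differences of these 3 genes were smaller than their standard errors. Gzma (−0.07) and Gzmk (0.05) overlapped between the groups, and Gzmc was 202 and 163 against 121 and 132 (−0.40, adjusted p = 0.786). T cell markers had a median of −0.07 (5 higher and 10 lower of 15). No overlap was seen for 5 lower and 0 higher T cell markers, beside 15.7% and 19.4% of all genes. Cd4, the coreceptor of helper T cells, was 2434 and 2412 against 2025 and 1884 (−0.30 ± 0.17 SE, adjusted p = 0.784) without overlap, and another Cd4 probe set gave −0.22. Cd8a was 4261 and 2040 against 2548 and 3058 (−0.08), with the 2 isotype arrays enclosing both day 0 arrays. A further Cd8a probe set gave −0.64 without overlap, at 1415 and 984 against 704 and 776. Foxp3, the regulator of regulatory T cells, was 99.8 and 82.8 against 84.0 and 69.9 (−0.15, adjusted p = 0.911).

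Natural killer cell genes were higher in 8 and lower in 4 of 12 tested members (median 0.15), and 4 of the higher ones showed no overlap, beside 19.4% of all genes. The largest negative difference was that of the receptor Klrc1, with 962 and 834 against 636 and 941 (−0.20, groups overlapping). Ncr1, the activating receptor NKp46 of natural killer cells, was 388 and 308 against 809.8 and 642 (0.96 ± 0.21 SE, adjusted p = 0.498). Il2rb, a chain of the receptors for interleukins 2 and 15, was 3828 and 3191 against 4797 and 4534 (0.41), and a further probe set gave 0.17. Il18r1, the receptor for interleukin 18, was not a member of this list. It was 2486 and 2613 against 3756 and 3677 (0.54 ± 0.17 SE, adjusted p = 0.608), with 685 on the syngeneic array. Immediate early genes are switched on within minutes of a stimulus. The list of these and of antigen receptor response genes had 15 of 22 tested members higher (median 0.20), 12 without overlap, beside 19.4% of all genes. Fos was 305 and 284 against 611 and 568 (0.89 ± 0.16 SE, adjusted p = 0.321), Dusp1, a phosphatase that ends MAP kinase signalling, was 266 and 275 against 548 and 511 (0.85), and Bhlhe40, a transcription factor of activated T cells and macrophages, was 1753 and 2497 against 4055 and 3569 (0.85). For each of these 3 genes the lower day 0 array exceeded the higher isotype array. Atf3, a stress-responsive factor, was 97.8 and 19.0 against 182 and 189 (1.22, adjusted p = 0.590). Only the day 0 mean of Atf3 reached the signal required for testing.

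Type I interferon response genes were lower in 16 of 20 tested members, with a median of −0.24, and the arrays did not overlap for 11 lower and 0 higher members, beside 15.7% and 19.4% of all genes. Between the 2 isotype arrays the median was −0.01 and between the 2 day 0 arrays −0.04. Ifit1, an antiviral protein that binds foreign RNA, was 1436 and 1520 under isotype and 833 and 846 under day 0 treatment, with 1084 on the syngeneic array (−0.78 ± 0.15 SE, adjusted p = 0.371). Ifit3, its partner protein, was 747 and 731 against 501 and 501 (−0.52 ± 0.15 SE, adjusted p = 0.590). The replicates of both genes lay within a narrow band and the groups were well apart. Ifi27l2a (−0.45), Eif2ak2 (−0.40, the kinase PKR), Rsad2 (−0.28, viperin) and Usp18 (−0.24, a feedback inhibitor) were lower without overlap, and another Eif2ak2 probe set gave −0.22 with overlap. The interferon gamma response, in contrast, had 14 of 24 members higher and a median of 0.03.

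The promoters of Ifit1 and Ifit3 are shown because both members carry the interferon response motif and were lower together. The windows hold the 250 bases before the start of the gene from RefSeq (GRCm38.p6, plus strand), chr19:34640639-34640888 for Ifit1 and chr19:34583279-34583528 for Ifit3. The motif searched on both strands was GAAA followed by any 2 bases and a second GAAA, and capitals mark its matches, which lie here on the opposite strand.
Ifit1: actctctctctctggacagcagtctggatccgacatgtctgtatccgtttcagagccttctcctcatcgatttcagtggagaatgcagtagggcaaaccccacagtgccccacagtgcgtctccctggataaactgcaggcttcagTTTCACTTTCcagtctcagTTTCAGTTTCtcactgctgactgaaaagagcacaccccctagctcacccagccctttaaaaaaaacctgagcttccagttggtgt
Ifit3: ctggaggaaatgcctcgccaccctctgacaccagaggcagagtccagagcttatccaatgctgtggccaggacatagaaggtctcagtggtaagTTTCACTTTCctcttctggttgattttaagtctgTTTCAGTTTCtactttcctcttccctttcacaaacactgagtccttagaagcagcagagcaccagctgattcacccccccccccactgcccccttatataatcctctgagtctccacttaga
Each window holds 2 matches, TTTCACTTTC and TTTCAGTTTC, which lie in the same order in both genes. The motif was found in 7 of 20 windows of tested list members (35.0%), against 978 of 32851 windows in all (2.98%). A match is a description of the letters and not a measured binding site.

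Among erythroid genes, those for globin chains and Alas2 had the largest differences. The probe set shared by beta globin genes was 5849 and 6418 under isotype and 1707 and 1551 under day 0 treatment, and 6367 and 6281 on the day 3 arrays. The difference from isotype was −1.88 ± 0.16 (SE, adjusted p = 0.0853), and that from day 3 was −1.93 (adjusted p = 0.0914). Of 3 probe sets shared by the alpha globin genes, 1 was 1825 and 1699 against 446 and 505 (−1.79 ± 0.16 SE, adjusted p = 0.0853), and the other two gave −1.65 and −1.34 (adjusted p = 0.154 each). All 4 globin probe sets were lower on the day 0 arrays than on any of the other allogeneic arrays. The syngeneic array held 17353 for beta globin and 279.6, 26784 and 11810 for the alpha globin probe sets, so 1 of these went the other way there.

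Alas2, the first enzyme of haem synthesis in erythroid cells, was 201 and 135 under isotype, 12.7 and 7.99 under day 0 treatment and 86.8 and 112 on the day 3 arrays. The day 0 arrays were the lowest of all 7. The difference from isotype was −1.84 ± 0.21 (SE, adjusted p = 0.154). The erythroid list as a whole was closer to 0, with 19 of 28 tested members lower and a median of −0.09. The arrays did not overlap for 10 lower and 2 higher members, beside 15.7% and 19.4% of all genes. Ermap, an erythroid membrane protein, was 746 and 694 against 479 and 548 (−0.45), Urod, a further enzyme of haem synthesis, was 531 and 566 against 421 and 407 (−0.37), and the transcription factors Klf1 (−0.23), Tal1 (−0.34) and Gata1 (−0.06) differed less. The promoter of Alas2 is shown because Alas2 had the largest difference of the erythroid list. Its window is chrX:150547167-150547416 (GRCm38.p6, plus strand), and the capitals mark a match to the GATA motif AGATAA, read here on the opposite strand.
Alas2: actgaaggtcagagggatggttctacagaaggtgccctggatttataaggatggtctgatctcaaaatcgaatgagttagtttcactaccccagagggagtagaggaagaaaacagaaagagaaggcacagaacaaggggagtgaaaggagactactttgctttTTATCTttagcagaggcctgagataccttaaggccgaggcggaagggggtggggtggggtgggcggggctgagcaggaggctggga
The window holds 1 match. The motif was found in 7 of 25 windows of tested erythroid list members (28.0%) and in 9.99% of all windows.

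Genes of the exocrine pancreas, an organ that lies beside the spleen, accounted for 6 of the 40 genes lower by at least 2-fold without overlap (0.446% of all genes). This list was drawn up with values of these arrays already known. Of 17 tested members 15 were lower and 2 higher (median −0.53). Cpb1 was 219 and 222 under isotype and 19.7 and 17.8 under day 0 treatment, and 11.7 and 37.1 on the day 3 arrays (day 0 minus isotype −1.98 ± 0.21 SE, adjusted p = 0.117). Cpa1, another carboxypeptidase, was 235 and 284 against 54.0 and 14.8 (−1.91 ± 0.30 SE, adjusted p = 0.240). Cela2a, an elastase, was 383 and 519 against 127 and 65.2 (−1.80, adjusted p = 0.200), and Clps, colipase, was 1050 and 681 against 242 and 307 (−1.48, adjusted p = 0.242). A further probe set of Clps gave −1.71. Ctrb1 (−1.39, chymotrypsinogen) and Reg2 (−1.12) were the other two of the 6. Cela3b gave 0.05, with 267 and 245 against 178 and 391, although the probe set it shares with Cela3a gave −1.28. The summed signal of the list was 8178 on the syngeneic array, 4991 and 4839 under isotype, 2172 and 2732 under day 0 treatment and 2896 and 3211 on the day 3 arrays. Pancreatic transcripts thus varied between groups on these arrays, and their part in the other results was not tested. The other genes among the 15 largest negative differences were Lce1h (−1.65), Utf1 (−1.60), Nkx1-2 (−1.54), Cd1d2 (−1.54), Il1rl2 (−1.42), Cntn2 (−1.41), Tepsin (−1.35), Tesmin (−1.33) and Mapkbp1 (−1.33). Tepsin, a component of vesicle coats, was 102 and 117 against 17.6 and 7.56 (adjusted p = 0.154). For Lce1h, Nkx1-2, Il1rl2, Tepsin and Tesmin only the isotype mean reached the signal required for testing. The filter thus admitted them through the group in which they were high.

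**Figure D4:**
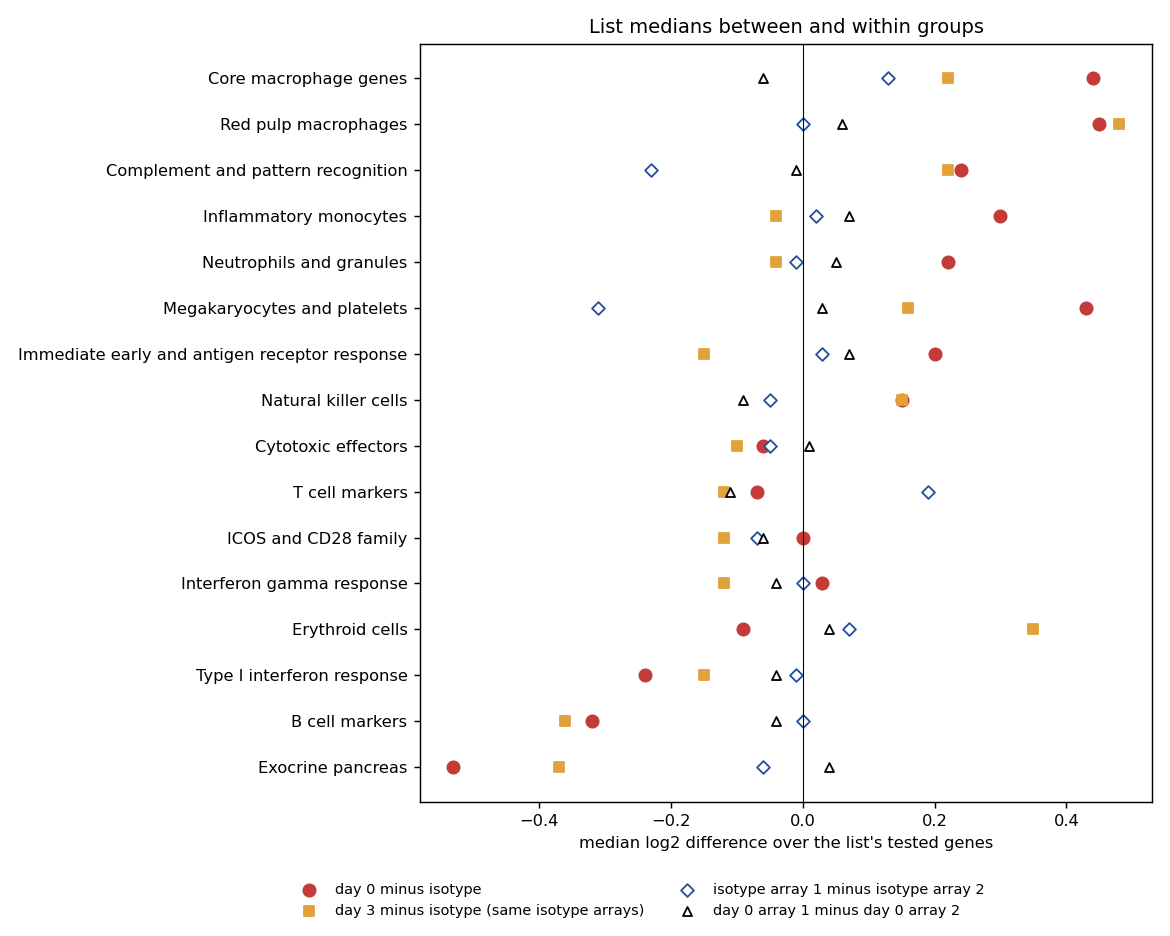
Median log2 differences (horizontal axis) of the 16 gene lists (vertical axis) between day 0 and isotype arrays (red), between day 3 and isotype arrays (orange squares) and between the 2 arrays of the isotype (diamonds) and day 0 groups (triangles). For core and red pulp macrophages (0.44 and 0.45), type I interferon response (−0.24), B cell markers (−0.32) and exocrine pancreas (−0.53) the red points lie farther from 0 than both within-group points, which does not hold for T cell markers or the ICOS and CD28 family.

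Values of mice treated from day 3 are set beside those of day 0, and both comparisons use the same isotype arrays. The differences from isotype of Saa3 were 2.28 for day 0 and 2.21 for day 3, those of Arg1 1.75 and 1.77, and those of Marco 1.18 and 1.22. For Ccl6 they were 1.28 and −0.05, for Raly 1.33 and −0.07, for Dusp1 0.85 and 0.01, and for Bhlhe40 0.85 and −0.35. The direct comparison of day 0 with day 3 arrays gave log2 differences of 1.33 for Ccl6, 1.39 for Raly, 0.84 for Dusp1 and 1.20 for Bhlhe40. In that comparison 0 of 15372 probe sets passed in limma, with a smallest adjusted p of 0.0914. The list medians for day 0 and day 3 were 0.44 and 0.22 for core macrophages and 0.45 and 0.48 for red pulp macrophages. For the marginal zone list they were 0.51 and 0.46. They were −0.32 and −0.36 for B cell markers and −0.24 and −0.15 for the type I interferon response. Erythroid genes had −0.09 and 0.35, and immediate early and antigen receptor response genes 0.20 and −0.15.

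Adipose tissue genes, a check for fat beside the spleen, had 4 of 10 members tested, 3 higher and 1 lower (median 0.43). Retn, the hormone resistin, was 48.4 and 64.0 under isotype and 108 and 185 under day 0 treatment (0.86), and Lpl, lipoprotein lipase, was 426 and 350.0 against 595 and 554 (0.52, another probe set 0.04). Car3, a carbonic anhydrase, differed by 0.34. Fabp4, a fatty acid carrier, gave −0.56 with day 0 arrays far apart, and another probe set gave 0.24. Adipoq, which defines fat cells, was near background and not tested. The summed signal of the list was 644 and 546 under isotype, 819.8 and 901 under day 0 treatment and 2710 on the syngeneic array, and its part in the other results was not tested.

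The lists not described so far had medians from −0.09 to 0.13. Oxidative phosphorylation genes were lower in 44 of 56 tested members and ribosomal protein genes in 27 of 38, each with a median of −0.09, and mitotic genes were higher in 23 of 33 with a median of 0.10. These medians are of the size seen between the 2 arrays of a group for the same lists, for example 0.08 and −0.10 for oxidative phosphorylation. Glycolysis genes had a median of −0.07, S phase genes 0.00 and p53 response genes −0.02.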

How the data were processed

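Spleen cell RNA (10 µg per array) was measured on 7 Affymetrix arrays. The authors deposited 1 linear intensity per probe set, computed with MAS5 (no version named) according to the submitters' processing notes. The 2% trimmed means lay between 500.18 and 500.19, so no further scaling was applied. Of 22690 probe sets 64 were controls, and 15372 of the other 22626 were tested because some group mean reached the 40th percentile of signals (99.7). Values were analysed as log2(signal + 50), which understates changes of dim genes. A single symbol was given for 20380 probe sets, several for 691 and none for 1555. Each gene is represented by the probe set with the highest mean signal. One limma 3.58.1 fit (R 4.3.3) over all 4 groups had 3 residual degrees of freedom and 3.36 prior degrees of freedom, and the spread of the lone syngeneic array was taken from the other groups. Tests were two-sided, with Benjamini-Hochberg adjustment across the 15372 probe sets. The procedure was tested on simulated data. The number of arrays limits the precision.

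Genes were named by rule: the 15 largest differences in each direction among those at least 2-fold apart without overlap, the 10 smallest p-values, up to 5 members of each of 45 lists, the ICOS and CD28 family, and a set of T cell, B cell and macrophage genes. Further members of small counts were chosen after their values were seen. Members, lists and rules were chosen with earlier results of these data known. Replicate numbers did not pair the arrays: deviations of same-numbered isotype and day 0 arrays correlated with r = −0.012. Alternatives were other pseudocounts (16 and 100), filters (60th percentile and none), scaling by quantiles or medians, a block for the replicate number, a fit restricted to the 4 arrays compared, limma's trend and robust options, the mean over a gene's probe sets, and leaving out each array. Promoter windows came from RefSeq (GRCm38.p6).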

Additional observations from a re-analysis of the deposited data

Results flagged for a closer look

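Of 140 genes examined by name, 12 had both day 0 arrays on one side of both isotype arrays and both day 3 arrays on the other. Over all 8962 tested genes this held for 220, with the day 0 arrays above and the day 3 arrays below in 104 and the reverse in 116. The isotype arrays are shared by both comparisons. The day 0 minus day 3 log2 differences were 1.59 for Lyz1 and 1.02 for Lyz2, the lysozymes, 0.87 for Fn1, 0.74 for Ngp, 0.56 for S100a9, 0.43 for Cd274 and 0.32 for Icos. They were −0.89 for Tal1, −0.68 for Ermap, −0.67 for Klf1, −0.56 for Gata1 and −0.38 for Cd80. Lyz1 was 2362 and 2011 on the day 0 arrays, 1631 and 1438 on the isotype arrays and 789 and 602 on the day 3 arrays. None of the 12 differences passed limma's test of day 0 against day 3, with adjusted p from 0.235 for Lyz1 to 0.762 for Icos.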

How the results depend on the processing

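No probe set passed, nor under 10 of the 13 alternatives (smallest adjusted p from 0.0763 to 0.668). Passing probe sets numbered 3 with a pseudocount of 100, 13 with a filter at the 60th percentile and 21 with limma's trend and robust options, Saa3 among them each time. Of 115 higher and 79 lower probe sets at least 2-fold apart, a pseudocount of 16 gave 315 and 192, a pseudocount of 100 gave 22 and 27, and the 60th percentile filter, which tests fewer probe sets, gave 30 and 35. Leaving out 1 array gave 185 to 314 higher and 107 to 211 lower. Among them were 71 to 98 of the 115 higher and 54 to 69 of the 79 lower probe sets. A lone array overlaps less often, and the cause of the larger counts was not tested. The lone array of a group was then assumed to vary like the others. Quantile normalization gave 104 and 103, and median centring 99 and 95.

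With the replicate number as a block 0 probe sets passed (smallest adjusted p 0.325), and 115 higher and 79 lower remained 2-fold apart. The numbers do not pair the arrays.

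Of 140 named genes 126 kept their direction under all alternatives tried for them, and 13 passed under at least 1. List medians ranged from 0.39 to 0.51 for core macrophages, 0.38 to 0.50 for red pulp macrophages, −0.37 to −0.23 for B cell markers, −0.29 to −0.21 for the type I interferon response −0.88 to −0.43 for the exocrine pancreas, 0.12 to 0.52 for megakaryocytes (0.12 without isotype replicate 1, 0.14 without day 0 replicate 1), 0.16 to 0.38 for inflammatory monocytes, 0.12 to 0.32 for neutrophils, 0.02 to 0.29 for natural killer cells, 0.16 to 0.47 for complement and 0.27 to 0.58 for adipose tissue. The other 14 genes had differences near 0 or replicates far apart, and the cause was not tested. With 1 array left out, ranges were −0.01 to 0.19 for Ifng, −0.02 to 0.22 for Gzmb, −0.24 to 0.11 for Gzma, −0.03 to 0.12 for Gzmk, −0.20 to 0.13 for Icosl, −0.38 to 0.11 for Cd28, −0.15 to 0.21 for Ctla4, −0.56 to 0.29 for Pdcd1, −0.67 to 0.15 for Tnfrsf14, −0.15 to 0.36 for Il21, −0.60 to 0.44 for Cd8a, −0.20 to 0.05 for H2-Aa and −0.42 to 0.53 for Cela3b. Quantile normalization gave 0.04 for Gzma and median centring −0.02 for Ctla4. The mean over probe sets gave 0.25 for Cd80 and −0.72 for Cela3b. Dim genes are limited by the pseudocount and by the background signal of the arrays.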
